A study of Mus musculus with 54 samples.

Results

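The genes described here are the nuclear-encoded subunits of mitochondrial complexes II, III, IV and V, measured as RNA in mouse kidney, brain and heart. They were chosen by symbol: Sdha to Sdhd, Cyc1, and all symbols that start with Uqcr, with Cox4 to Cox8 and a further letter, or with Atp5. Pseudogenes were left out, and a gene needed a count above 2 in 3 or more libraries. Of 49 protein-coding genes that matched, 48 passed, 4 of complex II, 9 of complex III, 17 of complex IV and 18 of complex V, out of 28042 genes of the series that passed the same count rule. The gene that did not pass was Cox8c, with 0 counts in all libraries. By the symbol rule the 48 genes also include Atp5if1, which encodes an inhibitor of complex V and no subunit of its catalytic core, and Cox7a2l, whose product helps to join complexes into supercomplexes.

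RNA was sequenced from male BL6 mice aged about 20 months after 14 daily intraperitoneal injections of Cmpd60 at 22.5 mg/kg or of vehicle. Cmpd60 is a benzamide that inhibits the histone deacetylases HDAC1 and HDAC2. Kidney gave 6 Cmpd60 and 5 vehicle libraries, brain 6 and 6, and heart 5 and 6. A second cohort held brains of APPSWE mice, which carry a transgene for the human amyloid precursor protein with the Swedish mutation on a BL6 background, and of AD-control mice, called littermates below. These mice were 6 to 7 months old by the study's methods, although the growth label shared by all samples gives 20 months, and received the same dose for the same 14 days. The APPSWE groups held 5 vehicle and 4 Cmpd60 libraries in the fits, and the littermate groups 5 and 5. A further APPSWE library, V139, was left out because its labels and the study's own table give it opposite treatments. The treatment field of the kidney labels is opposite to the sample titles and source names. The column headings of the study's own table give the same groups as the titles, and the titles were followed. Had the field been followed, each kidney difference between Cmpd60 and vehicle would turn its sign, and the kidneys called vehicle in the tissue comparisons would be those of Cmpd60 mice. Replicates are named by their library number, in the APPSWE cohort with V for vehicle or C for Cmpd60 before it.

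Complexes II to V are the later part of the oxidative phosphorylation chain in the inner mitochondrial membrane. Complex II (succinate dehydrogenase) is also an enzyme of the tricarboxylic acid (TCA) cycle and passes electrons from succinate to ubiquinone, complex III passes them on to cytochrome c, complex IV reduces oxygen to water, and complex V uses the proton gradient to make ATP. Complex II is built from nuclear genes alone, while complexes III, IV and V each join nuclear subunits with subunits encoded in mitochondrial DNA. Heart muscle is among the tissues richest in mitochondria, the kidney tubule is rich in them too, and several small subunits of complex IV exist as pairs of genes, a common form and a form of heart and skeletal muscle.

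The promoters of 4 of these isoform genes are shown because their tissue levels ran in opposite directions, as described further on. Cox6a1 and Cox8a encode the common forms of subunits 6a and 8, and Cox8b and Cox7a1 encode muscle forms of subunits 8 and 7a. Each sequence is the reference sequence of RefSeq on GRCm38.p6, 300 bases long, 250 before and 50 after the annotated start of the gene, written 5′ to 3′ in the direction of transcription. Capitals mark a palindromic core of the binding motif of nuclear respiratory factor NRF1 (the first run of capitals in Cox6a1), CCGGAAG or its reverse complement CTTCCGG, a core of the motif of GABPA, and TATAAA, the letters of a TATA box. The Cox6a1 window is chr5:115348909-115349208 on the minus strand, that of Cox8a is chr19:7217567-7217866 on the minus strand, that of Cox8b is chr7:140900397-140900696 on the minus strand and that of Cox7a1 is chr7:30183921-30184220 on the plus strand.
Cox6a1: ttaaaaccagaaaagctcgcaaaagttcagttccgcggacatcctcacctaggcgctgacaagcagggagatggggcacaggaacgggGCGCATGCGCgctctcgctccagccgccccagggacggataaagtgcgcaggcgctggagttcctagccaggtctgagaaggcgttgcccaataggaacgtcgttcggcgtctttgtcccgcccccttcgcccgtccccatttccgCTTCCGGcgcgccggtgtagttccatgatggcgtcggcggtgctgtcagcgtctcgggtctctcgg
Cox8a: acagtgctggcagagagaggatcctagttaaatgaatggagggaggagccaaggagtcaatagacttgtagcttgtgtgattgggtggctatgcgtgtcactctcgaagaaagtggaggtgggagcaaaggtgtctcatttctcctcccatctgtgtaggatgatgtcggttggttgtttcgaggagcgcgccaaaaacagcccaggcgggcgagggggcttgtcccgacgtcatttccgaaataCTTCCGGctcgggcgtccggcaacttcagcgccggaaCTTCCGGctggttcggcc
Cox8b: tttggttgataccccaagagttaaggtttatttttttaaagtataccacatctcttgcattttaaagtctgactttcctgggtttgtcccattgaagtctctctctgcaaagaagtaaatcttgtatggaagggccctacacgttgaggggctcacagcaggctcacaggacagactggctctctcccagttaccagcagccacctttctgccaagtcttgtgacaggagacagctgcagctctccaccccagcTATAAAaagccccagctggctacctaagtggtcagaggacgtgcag
Cox7a1: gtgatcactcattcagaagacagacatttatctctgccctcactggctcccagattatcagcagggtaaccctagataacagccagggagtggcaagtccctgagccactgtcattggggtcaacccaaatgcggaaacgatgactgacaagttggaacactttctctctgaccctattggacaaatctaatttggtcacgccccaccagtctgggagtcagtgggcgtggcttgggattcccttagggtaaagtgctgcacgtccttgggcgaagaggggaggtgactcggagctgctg

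Promoter windows of this length were given for 37 of the 48 genes and for 27025 genes in all. The muscle form Cox6a2 was among the members without a window, as were Cox4i1 and Cox4i2, so these were not searched. Both strands were searched, and overlapping matches of different motifs were allowed. The NRF1 core stood in the windows of 4 of the 37 genes (10.8%), against 1.07% of all windows. CCGGAAG stood in 13 of 37 (35.1%), against 9.93% of all windows. TCAAGGTCA, a core motif of the estrogen-related receptor ERRA, stood in 2 of 37 (5.41%), against 0.466% of all. A core motif of the muscle factor MEF2 stood in 0 of 37, against 3.7% of all, and TATAAA in 4 of 37 (10.8%), against 15.7% of all. The common forms Cox6a1 and Cox8a each held CCGGAAG, Cox6a1 held the NRF1 core as well, Cox8b held TATAAA in the 50 bases after its annotated start, and in the Cox7a1 window none of these letter strings was found. These matches describe letters in a window and do not show that a factor bound there.

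The libraries held between 23584609 and 57430113 reads counted on genes. Levels are given as CPM (depth-scaled counts, with edgeR's TMM factors), and, where different genes are compared, as CPM per kilobase (kb) of transcript. A count of 0 in a library allows a level of up to 0.046 to 0.164 CPM, depending on its depth. The labelled tissues carried their markers: the summed CPM of 5 cardiomyocyte genes was 61410 to 71910 in vehicle heart, that of 5 proximal tubule genes 7171 to 8775 in vehicle kidney, and that of 5 neuronal genes 4549 to 5274 in vehicle brain at 20 months. Brown fat genes varied within the heart and the kidney, with Ucp1, the uncoupling protein of brown fat, at 0 to 127 CPM across heart libraries and 0 to 29.3 CPM across kidney libraries. In such bulk samples, fewer cells of a type and less RNA per cell cannot be told apart.

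The 48 genes took up more of the RNA in the heart than in the kidney, and more in the kidney than in the brain. They held 2.43% to 2.61% of all gene counts in the vehicle hearts, 1.25% to 1.5% in the vehicle kidneys and 0.643% to 0.793% in the vehicle brains at 20 months, and these ranges did not overlap. For complex II the summed level was 4092 ± 307 CPM (SD, n = 6) in vehicle heart, 1706 ± 109 CPM (n = 5) in kidney and 705 ± 40.6 CPM (n = 6) in brain. For complex III it was 5412 ± 309 CPM in heart, 1920 ± 168 CPM in kidney and 982 ± 76.5 CPM in brain. For complex IV the sums were 5346 ± 374, 2180 ± 310 and 1476 ± 140 CPM in the same order, and for complex V 18840 ± 1201, 7156 ± 643 and 3419 ± 246 CPM. Each of the 4 complexes thus had the order heart, kidney, brain, with no overlap of the libraries of different tissues. Complex V made up 55.9% ± 0.664 of the summed level in heart, 55.2% ± 0.541 in kidney and 51.9% ± 0.29 in brain, while complex IV held a larger share in brain (22.4% ± 0.54) than in heart (15.9% ± 1.14) or kidney (16.8% ± 1.09). The sums are descriptions and were not tested.

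**Figure D1:**
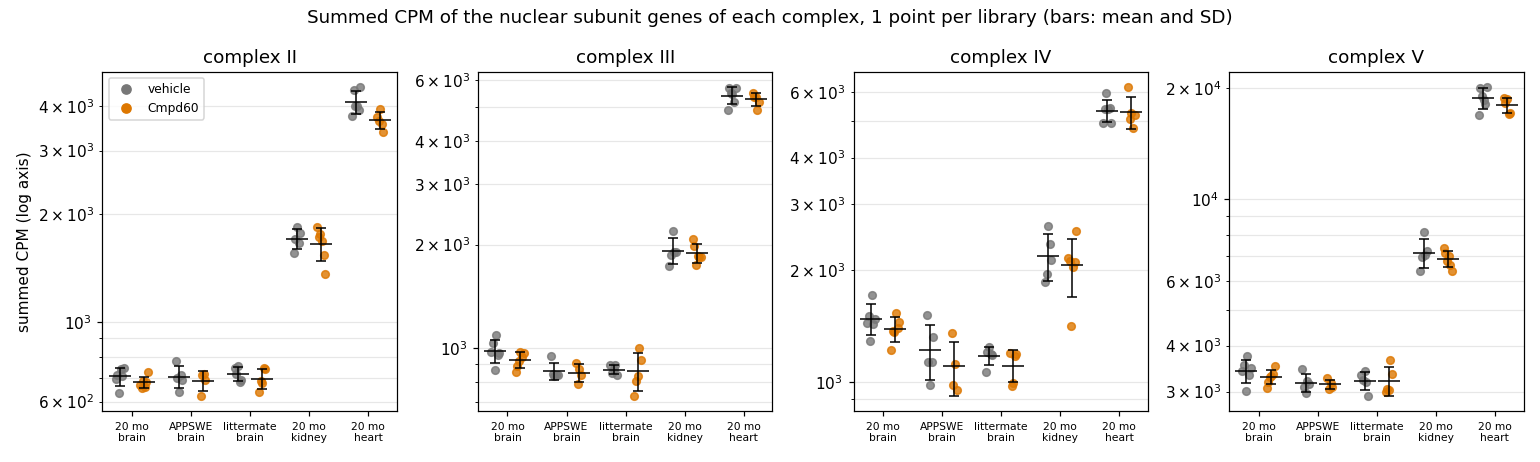
Summed CPM (log axis) of the nuclear subunit genes of complexes II, III, IV and V in each library, for vehicle (grey) and Cmpd60 (orange) in 5 tissue and cohort groups; each point is 1 library and bars give the mean and SD. Heart libraries stood highest in every complex, for example 3740 to 4501 CPM for complex II in vehicle heart against 1553 to 1837 CPM in vehicle kidney, and vehicle and Cmpd60 libraries overlapped in every group.

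Within a complex, the same gene had the highest level per kb in all 3 tissues. These were Sdha, the flavoprotein that oxidizes succinate (806 CPM per kb in vehicle heart, 332 in kidney and 161 in brain), Uqcrc1, a core protein of complex III (1060, 320 and 196 CPM per kb), Cox4i1, the common form of a regulatory subunit of complex IV (2520, 973 and 676 CPM per kb), and Atp5f1b, the catalytic beta subunit of complex V (3540, 1450 and 628 CPM per kb). The lowest level per kb in complex V was that of Atp5po, a subunit of the stalk, with 28.1 CPM per kb in heart, and in complex IV that of Cox7b2, an isoform of subunit 7b, with at most 9 counts in any vehicle library of these tissues.

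Tissue differences were tested in the vehicle groups with edgeR's quasi-likelihood test on all 34 libraries of the aged mice, with Benjamini-Hochberg (BH) adjustment over 27105 genes. Between heart and kidney, 43 of the 48 genes were higher in heart and 4 lower at an adjusted p below 0.05, with a median log2 difference of 1.25, where 56.7% of all genes tested passed in either direction, 25.6% higher and 31.1% lower, and the median of all genes was −0.02. Between heart and brain, 43 were higher and 2 lower, with a median of 2.34, where 72.1% of all genes passed, 28.9% higher and 43.2% lower, and the median was −0.44. Between kidney and brain, 41 were higher in kidney and 3 lower, with a median of 0.87, where 72.5% of all genes passed, 32.8% higher and 39.8% lower, and the median was −0.24. The kidney-to-brain values depended on the scaling: with DESeq2's size factors in edgeR the median of all genes was −0.37 and that of the 48 genes 0.73, with 40 higher and 3 lower. Libraries of heart and kidney did not overlap for 39 genes that were higher and 4 that were lower in heart, where 19.5% and 22.0% of all genes had such separation. For heart and brain these were 43 and 2 genes (21.4% and 34.0% of all genes), and for kidney and brain 33 and 2 (25.2% and 34.4%). By mean level, 38 genes had the order heart, kidney, brain.

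**Figure D2:**
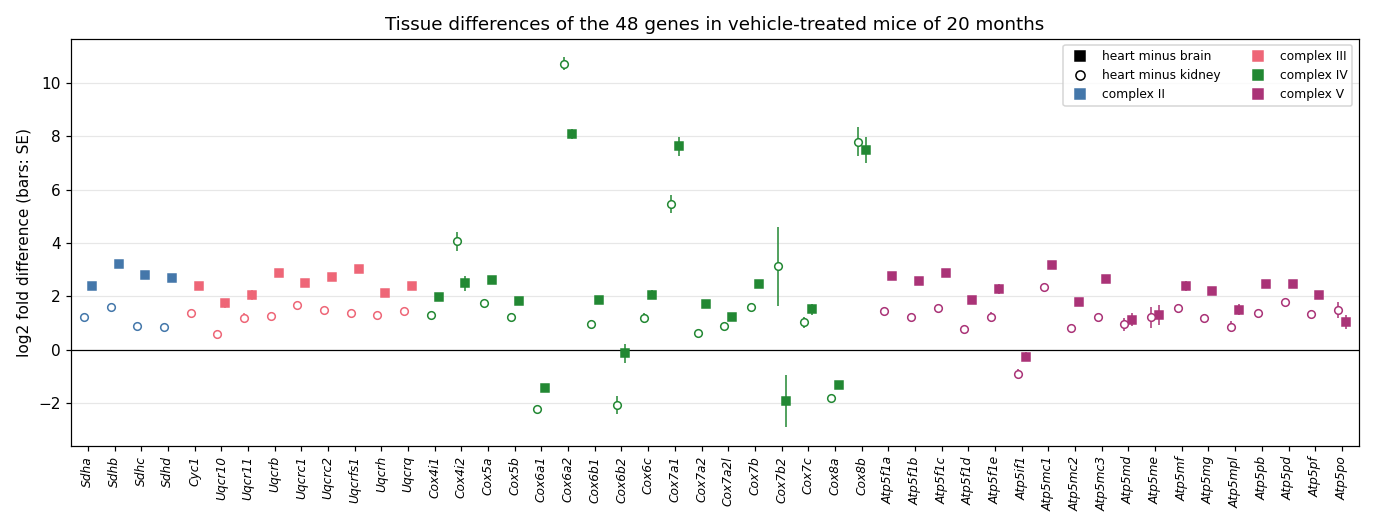
Log2 difference of each of the 48 genes between heart and brain (filled squares) and between heart and kidney (open circles) in vehicle mice of 20 months, colored by complex, with bars for the standard error (SE). In both comparisons 43 points lie significantly above 0; Cox6a2, Cox7a1 and Cox8b stand above the others in both, and Cox6a1, Cox8a, Cox6b2 and Atp5if1 lie below 0 against the kidney.

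All 4 genes of complex II rose from brain to kidney to heart, and the kidney-to-brain differences were larger than for the other complexes, with a median log2 difference of 1.73 against 1.03 for complex III, 0.66 for complex IV and 0.92 for complex V. Between heart and brain the medians were 2.76, 2.40, 1.87 and 2.25, and between heart and kidney 1.05, 1.37, 1.24 and 1.24, in the order II to V. These differences between complexes were not tested. Sdhb, the iron-sulfur subunit, was at 816 ± 64.5 CPM (SD, n = 6) in heart, 256 ± 25.2 CPM (n = 5) in kidney and 91.6 ± 5.93 CPM (n = 6) in brain, with a log2 difference of 3.23 ± 0.07 (SE) between heart and brain (adjusted p = 1.68e-29). Sdhc and Sdhd, which anchor the complex in the membrane, were less raised over kidney in the heart (0.89 ± 0.07 and 0.87 ± 0.08) than Sdha (1.22 ± 0.09) and Sdhb (1.6 ± 0.07), and exceeded the brain in kidney by 1.91 ± 0.07 and 1.84 ± 0.08. All of these passed the adjusted threshold in edgeR's test.

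All 9 genes of complex III had the same order of tissues and passed in each of the 3 comparisons. Of all genes, 56.7% passed between heart and kidney, 72.1% between heart and brain and 72.5% between kidney and brain. Uqcrfs1, the Rieske iron-sulfur protein, was at 773 ± 63.8 CPM in heart, 282 ± 25.0 CPM in kidney and 99.4 ± 12.0 CPM in brain, and its differences were the largest of the complex against the brain, 3.03 ± 0.08 for heart and 1.64 ± 0.08 for kidney. Uqcrc1 and Uqcrc2, the core proteins, were higher in heart than in kidney by 1.67 ± 0.08 and 1.48 ± 0.07, and Cyc1, cytochrome c1, by 1.36 ± 0.08. Uqcr10, a small subunit, had the lowest difference between heart and kidney, 0.59 ± 0.17 (adjusted p = 0.00312), and was the gene of the complex whose heart and kidney libraries overlapped.

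Complex IV showed the widest spread, and its isoform genes went in opposite directions. Cox6a2, the muscle form of subunit 6a, was at 587 CPM in the lowest, 631 in the median and 695 in the highest of the 6 vehicle hearts. In the 5 vehicle kidneys it was at 0.356, 0.296, 0.438, 0.377 and 0.327 CPM (replicates 45 to 49), which are 9 to 13 counts, and in the 6 vehicle brains at 1.58, 2.44 and 3.19 CPM (lowest, median and highest). The 3 tissues did not overlap, and Cox6a2 had the largest difference of the 48 genes between heart and kidney (log2 10.71 ± 0.24, adjusted p = 1.26e-29) and between heart and brain (8.09 ± 0.18, adjusted p = 7.29e-30); kidney minus brain was −2.63 ± 0.25 (adjusted p = 1.52e-11).

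Cox6a1, the common form, had the opposite order. It was at 38.1, 48.6 and 57.4 CPM (lowest, median, highest) in vehicle heart, at 185, 192, 257, 207 and 208 CPM in the 5 vehicle kidneys and at 114, 130 and 164 CPM in vehicle brain. Heart libraries were all below those of the other tissues, by a log2 difference of −2.21 ± 0.11 against kidney (adjusted p = 7.93e-19) and −1.42 ± 0.11 against brain (adjusted p = 4.28e-14). Per kb, Cox6a2 made up 92.0% ± 1.23 (SD, n = 6) of the sum of both genes in vehicle heart, 0.148% ± 0.014 (n = 5) in kidney and 1.56% ± 0.299 (n = 6) in brain.

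Subunit 8 had the same pattern. Cox8b, the muscle form, was at 112, 74.0, 114, 103, 109 and 72.7 CPM in vehicle hearts 62 to 67 and at most 1.92 CPM in vehicle kidney and 0.789 CPM in vehicle brain, with log2 differences of 7.79 ± 0.55 between heart and kidney and 7.48 ± 0.49 between heart and brain (adjusted p = 5.35e-15 and 3.64e-16). Cox8a, the common form, was at 48.4, 66.1 and 75.0 CPM in heart (lowest, median, highest), at 181, 201, 277, 213 and 198 CPM in kidney and at 141, 166 and 202 CPM in brain, and was lower in heart by −1.82 ± 0.11 against kidney and −1.32 ± 0.11 against brain. In vehicle heart Cox8a held 30.4% ± 2.17 of the level of both genes per kb, against 99.7% ± 0.574 in kidney. The 5 kidney values of Cox8b were 0.327, 0.0329, 0.0365, 1.92 and 0 CPM. Without kidney replicate 48, which held the 1.92 CPM, its difference between heart and kidney was 9.82.

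Subunit 7a had a muscle form that rose without a loss of the common form. Cox7a1 was at 192, 148, 173, 138.8, 214 and 115 CPM in vehicle hearts 62 to 67, at 2.64, 2.07, 5.22, 4.60 and 3.39 CPM in the vehicle kidneys and at 0.865 ± 0.218 CPM (SD, n = 6) in vehicle brain. The 3 tissues did not overlap, with log2 differences of 5.46 ± 0.33 between heart and kidney and 2.16 ± 0.37 between kidney and brain. Cox7a2, the common form, was also higher in heart, at 236 ± 29.7 CPM against 145.8 ± 19.4 in kidney and 75.1 ± 6.55 in brain (log2 0.63 ± 0.12 over kidney, adjusted p = 1.85e-05). Cox7a1 thus held 58.5% ± 4.73 of the sum per kb in heart, a smaller share than Cox6a2 held of its pair.

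**Figure D3:**
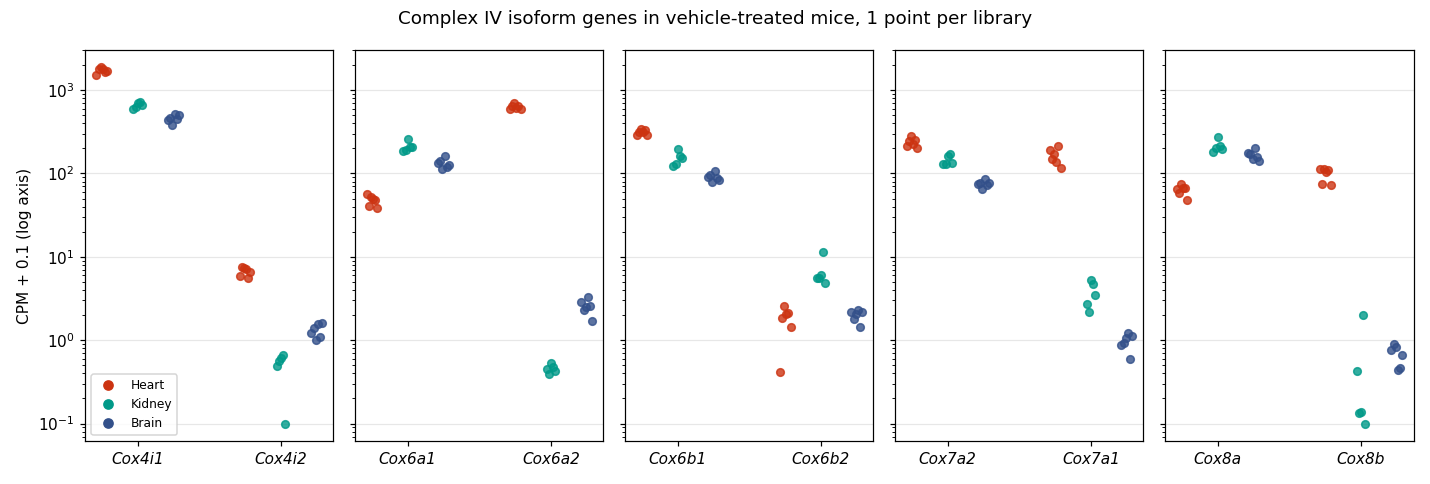
CPM + 0.1 (log axis) of the isoform genes of complex IV subunits 4, 6a, 6b, 7a and 8 in vehicle mice of 20 months, 1 point per library, colored by tissue. Cox6a2 lies at 587 to 695 CPM in heart and under 0.5 CPM in kidney, while Cox6a1 and Cox8a lie lower in heart than in kidney and brain.

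Brown fat also uses Cox7a1 and Cox8b, and its markers moved with them in some libraries and not in others. In the vehicle hearts, the summed CPM of Ucp1, Cidea and Elovl3 ran from 32.8 to 218, highest in replicate 62, where Cox7a1 was at 192 and Cox8b at 112 CPM. Cox7a1 was highest in heart 66, at 214 CPM with Ucp1 at 17.95 CPM. Cox8b was highest in heart 64, at 114 CPM with Ucp1 at 38.8 CPM. In hearts 63 and 67 Ucp1 was at 0, and Cox7a1 was still at 148 and 115 CPM and Cox8b at 74.0 and 72.7 CPM. In the kidney, where Cox8b was near 0, it was highest in vehicle replicate 48 and in Cmpd60 replicate 54 (1.24 CPM), which also had the highest Ucp1 levels, 29.3 and 23.0 CPM. Kidney Cox7a1 was highest in other libraries, Cmpd60 replicate 55 (6.165 CPM) and vehicle replicate 47 (5.22 CPM). Their Ucp1 levels were 0.835 and 0.365 CPM. The part of brown fat in these kidney values was not tested.

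Other isoforms of complex IV were rare. Cox4i2, the lung form of subunit 4, was at 6.55 ± 0.797 CPM in heart, 0.384 ± 0.225 in kidney and 1.22 ± 0.252 in brain, against 1714 ± 131, 661 ± 50.0 and 459 ± 50.2 CPM for Cox4i1. It was higher in heart than in kidney by 4.07 ± 0.35 and lower in kidney than in brain by −1.58 ± 0.35 (log2, adjusted p = 1.54e-12 and 0.000155). Cox6b2, known from testis, was at 6.60 ± 2.67 CPM in kidney, 1.65 ± 0.755 in heart and 1.90 ± 0.319 in brain. It was higher in kidney than in heart and brain (log2 −2.06 ± 0.35 for heart minus kidney, 1.93 ± 0.34 for kidney minus brain), while heart and brain did not differ beyond their spread (−0.13 ± 0.34, adjusted p = 0.749). Cox7b2 had 0 counts in all vehicle kidneys, at most 2 in the hearts and at most 9 in the brains, so that no fold is given, although kidney minus brain passed the test. The more abundant subunits Cox5a, Cox5b, Cox6b1, Cox7b and Cox7a2l followed the order heart, kidney, brain by mean level: Cox5a exceeded the kidney in heart by 1.77 ± 0.10, Cox5b by 1.24 ± 0.13, Cox6b1 by 0.97 ± 0.13, Cox7b by 1.59 ± 0.14 and Cox7a2l by 0.89 ± 0.08.

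In complex V, 17 of 18 genes were higher in heart than in kidney and than in brain. At the adjusted threshold, 25.6% of all genes were higher in heart than in kidney and 28.9% higher than in brain. Atp5f1a and Atp5f1b, the alpha and beta subunits of the catalytic head, were at 5424 ± 480 and 6773 ± 590 CPM in vehicle heart, 1882 ± 137 and 2785 ± 206 CPM in kidney, and 848 ± 52.4 and 1203 ± 81.6 CPM in brain. The 3 genes Atp5mc1, Atp5mc2 and Atp5mc3 encode the same mature c subunit of the membrane ring, with different import sequences, and differed in their tissue steps. Atp5mc1 was at 490, 575 and 615 CPM in heart (lowest, median, highest), at 90.9, 103, 118, 109 and 111 CPM in the 5 kidneys and at 53.5, 66.95 and 73.6 CPM in brain, and exceeded the kidney in heart by 2.34 ± 0.10 (adjusted p = 7.71e-22), more than Atp5mc3 (1.24 ± 0.09) and Atp5mc2 (0.81 ± 0.10). Atp5mc1 held 31% ± 1.33 of the summed level of the 3 genes per kb in heart, 16.9% ± 0.718 in kidney and 22.4% ± 0.57 in brain, and Atp5mc3 the largest share in each tissue (61.9%, 72.1% and 64.4%).

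Atp5if1, the inhibitor of ATP hydrolysis by complex V, was the gene of this complex that was lower in heart. It was at 47.4, 52.1 and 64.2 CPM in vehicle heart (lowest, median, highest), at 76.2, 73.9, 129, 94.6 and 99.0 CPM in the kidneys and at 59.7, 65.01 and 78.6 CPM in brain. Heart and kidney libraries did not overlap (log2 −0.89 ± 0.17, adjusted p = 3.54e-05), and the kidney exceeded the brain by 0.63 ± 0.17 (adjusted p = 0.00159), whereas heart and brain did not differ at the adjusted threshold (−0.26 ± 0.17, adjusted p = 0.157). Atp5md, Atp5me and Atp5po did not differ between kidney and brain at the adjusted threshold (0.18 ± 0.24, 0.08 ± 0.39 and −0.45 ± 0.28).

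The related gene lists moved with the tissues to unequal extents. The counts that follow are genes past the adjusted threshold between heart and kidney. Of all genes tested, 25.6% were higher and 31.1% lower in heart at that threshold. Of 39 nuclear subunit genes of complex I, 37 were higher and 1 lower in heart than in kidney, with a median log2 difference of 1.3. Of 13 TCA cycle genes, 12 were higher and 1 lower (median 1.57), and of 12 genes encoded in mitochondrial DNA, 11 were higher (median 1.71). The assembly factors of complexes II to V, which help to build the complexes without remaining in them, gave 20 higher and 5 lower of 37 tested (median 0.65), and 13 regulators of mitochondrial gene expression 6 higher and 1 lower (median 0.27). Cytosolic ribosomal protein genes, a list outside the mitochondrion, had a median of −0.01 with 15 higher and 8 lower of 85.

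Cmpd60 was then compared with vehicle within each tissue. In the brain at 20 months, none of the 48 genes passed at an adjusted p below 0.05 in edgeR's quasi-likelihood test, where 0.0205% of all genes passed, and the smallest adjusted p was 0.113. At an unadjusted p below 0.05, 20 of the 48 were lower and 0 higher, against 13.8% of all genes in either direction and 6.47% lower. The fitted value was below 0 for 45 of the 48 genes, with a median log2 difference of −0.11, against 48.2% of all genes and a median of 0.01. Among all genes with transcripts of up to 600 bases and at least 10 CPM, 71% had values below 0, as described further on. By complex, 4 of 4 values were below 0 in complex II (median −0.09), 9 of 9 in complex III (−0.15), 14 of 17 in complex IV (−0.10) and 18 of 18 in complex V (−0.16). In 0 members did the vehicle and Cmpd60 libraries separate without overlap, against 0.851% of all genes higher and 0.205% lower. DESeq2 passed 3 members, Atp5f1e, Atp5me and Atp5mg, all lower, with adjusted p of 0.0371, 0.0463 and 0.0157, and limma-voom passed 0. Over all genes, DESeq2 passed 429 in the brain, against 5 of 24438 in edgeR's test.

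Atp5mg, subunit g of the membrane part of complex V, had the smallest p. It was at 58.3, 65.8 and 74.2 CPM in the vehicle brains (lowest, median, highest) and at 49.8, 57.4 and 62.3 CPM with Cmpd60, so that the groups overlapped between 58.3 and 62.3 CPM, with a log2 difference of −0.25 ± 0.06 (adjusted p = 0.113 in edgeR's test). Atp5f1e, the epsilon subunit of the central stalk, was at 36.5, 38.5 and 50.1 CPM against 25.3, 31.5 and 41.2 CPM (−0.37 ± 0.10, adjusted p = 0.145). Cyc1 was at 135, 158 and 165 CPM against 127, 141 and 150 CPM (−0.18 ± 0.06, adjusted p = 0.191 in the edgeR test). In each of these the lowest Cmpd60 library lay below all vehicle libraries and the highest vehicle library above all Cmpd60 libraries, and the ranges overlapped.

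Cox7c, a small structural subunit of complex IV, was at 73.0, 75.4 and 104 CPM in vehicle brain and at 62.03, 65.5 and 86.8 CPM with Cmpd60 (−0.30 ± 0.10, adjusted p = 0.194 in edgeR's test). For Sdhb the difference was −0.11 ± 0.05 (adjusted p = 0.357). Among the most abundant members, Atp5f1a was at 761, 845 and 915 CPM against 816, 848 and 943 CPM (−0.01 ± 0.05, with scaling factors of the 12 brain libraries alone, whereas CPM were scaled over all libraries), Atp5f1b differed by −0.10 ± 0.05 and Sdha by −0.10 ± 0.05, and none of these passed. The muscle forms stayed at trace levels, with Cox6a2 at 2.28 ± 0.546 CPM and Cox7a1 at 0.884 ± 0.200 CPM under Cmpd60 (n = 6).

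The brain counts leaned on particular libraries. Among the 45 members with a mean of at least 10 CPM over all fitted libraries, vehicle replicate 30 was the highest of its group for 39 and vehicle replicate 29 the lowest for 30. Replicate 29 also had the largest share of reads outside annotated genes, 11.0% against 7.17% to 8.82% in the other vehicle brains. In the Cmpd60 brains this share was 8.56% to 10.2%, with a median of 8.725% against 7.87% with vehicle. The share and the treatment thus cannot be fully told apart. Without replicate 30, 9 of the 48 genes had an unadjusted p below 0.05, all lower, against 5.41% of all genes lower. Without replicate 29, 28 had, all lower, against 8.1% of all genes lower. In that fit Cyc1 and Atp5mg passed the adjusted threshold in edgeR's test (adjusted p = 0.0467 and 0.0352). So did 372 of all 24262 genes tested, against 5 of 24438 with every library. Without Cmpd60 replicate 36, Atp5f1e passed in edgeR's test (adjusted p = 0.0422), and the count over all genes in that fit is not given here. With the share of reads outside genes as a covariate, an alternative chosen after the data were seen, 10 members had an unadjusted p below 0.05, 1 higher and 9 lower, against 4.82% of all genes lower, and 40 of 48 values were below 0, with a median of −0.07. In the same comparison 35 of 39 complex I genes and 72 of 84 ribosomal protein genes had values below 0 (medians −0.15 and −0.09), while of 11 genes encoded in mitochondrial DNA, some of which encode subunits of complexes III to V, 5 had values below 0 and 5 an unadjusted p below 0.05 on the higher side (median 0.14). The TCA cycle genes had 11 of 13 values below 0 (median −0.05). Of 5 neuronal markers, 4 had an unadjusted p below 0.05 on the higher side, where 13.8% of all genes had in either direction. From vehicle to Cmpd60, median summed CPM of endothelial markers went from 72.6 to 81.6 and of podocyte markers from 37.6 to 50.2. For oligodendrocyte markers it went from 5870 to 5775 and for choroid plexus markers from 652 to 490. The number of genes detected was 25850 to 28017 with Cmpd60 and 24939 to 25861 with vehicle. Depth differed as well, with 29646412 to 57430113 counts on genes per Cmpd60 library and 26402957 to 32344641 per vehicle library. With counts thinned to the smallest library, 21 members had an unadjusted p below 0.05 in edgeR's test, all lower. The share over all genes in that fit is not given here. The part of the marker levels and of the genes detected in the result was not tested.

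In the heart, none of 47 genes tested passed the adjusted threshold in edgeR's test, where 1.18% of all genes passed. At an unadjusted p below 0.05, 5 were lower and 1 higher, against 13.5% of all genes, 6.22% lower and 7.28% higher. The median log2 difference of the members was −0.01, with 26 values below 0. In complex II, 4 of 4 values were below 0, with a median of −0.17, and 3 of the 5 lower genes belonged to it. Its summed level was 3641 ± 193 CPM (SD, n = 5) with Cmpd60 and 4092 ± 307 CPM (n = 6) with vehicle. DESeq2 passed 2 members, Sdha and Sdhb, both lower (adjusted p = 0.0279 and 0.0243), and limma-voom passed 0. Over all genes, DESeq2 passed 746 in the heart, against 229 of 19452 in edgeR's test.

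Sdhb was at 756, 668, 733, 657 and 724 CPM in the Cmpd60 hearts 68 to 72 and at 730, 862, 805, 756, 844 and 898 CPM in the vehicle hearts 62 to 67. Its difference was −0.22 ± 0.06 on the log2 scale (adjusted p = 0.113 in edgeR's test), and 2 of the 5 Cmpd60 hearts, replicates 68 and 70, lay within the range of the vehicle hearts. Sdha was at 2100, 2046, 2260, 2052 and 1827 CPM against 2207, 2581, 2198, 2331, 2129 and 2582 CPM (−0.20 ± 0.06, adjusted p = 0.136 in edgeR's test). Here 1 of the 5 Cmpd60 hearts, replicate 70, lay within the vehicle range.

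Sdhc followed with −0.15 ± 0.06, and Sdhd, at 384, 451, 413, 419 and 396 CPM against 344, 458, 474, 424, 419 and 447 CPM, gave −0.06 ± 0.07, with adjusted p of 0.297 and 0.776 in edgeR's test. Leaving out each library in turn kept the values of Sdha between −0.22 and −0.16 and those of Sdhb between −0.24 and −0.19. Of the 13 TCA cycle genes, which act beside complex II, 11 had values below 0 (median −0.11), and 1, Fh1 (fumarate hydratase, the enzyme that follows complex II in the cycle), fell by 0.30 on the log2 scale (adjusted p = 0.0245 in edgeR's test).

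**Figure D4:**
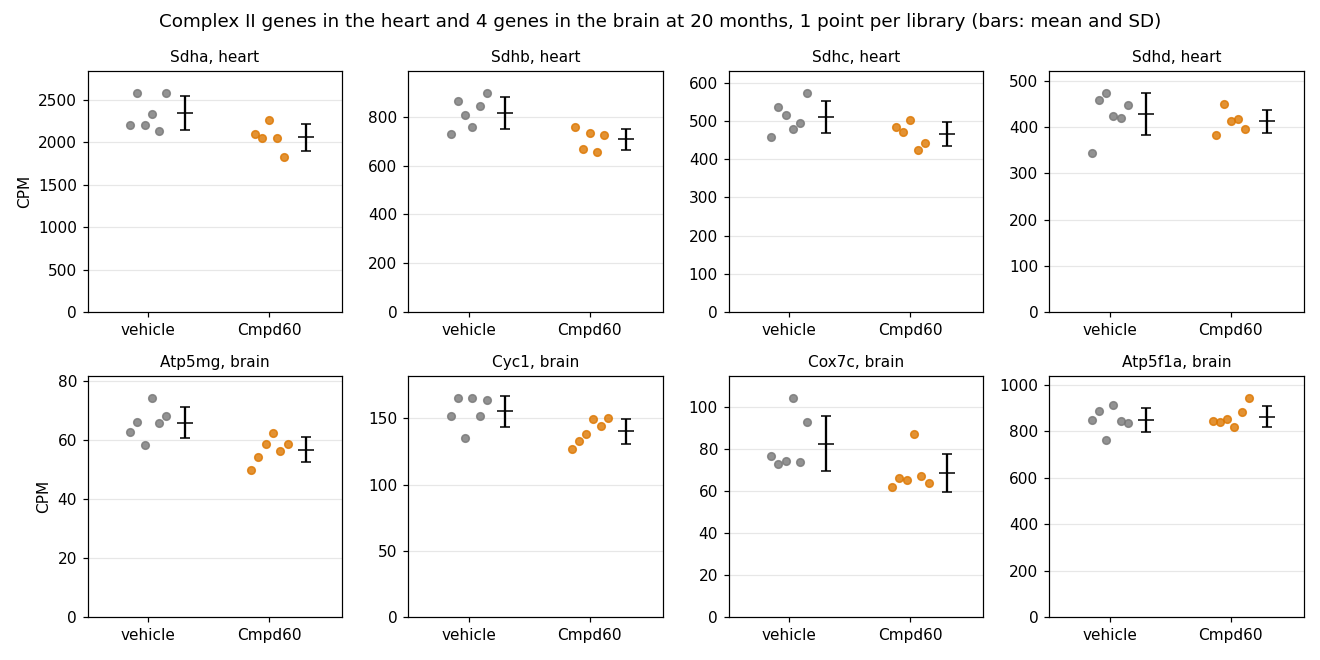
CPM of the 4 complex II genes in the heart (upper panels) and of Atp5mg, Cyc1, Cox7c and Atp5f1a in the brain (lower panels) at 20 months, 1 point per library, vehicle in grey and Cmpd60 in orange, with bars for the mean and SD; axes start at 0. The groups overlap in all 8 panels; Sdha lies at 1827 to 2260 CPM with Cmpd60 and 2129 to 2582 CPM with vehicle in the heart.

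The other heart members were spread around 0. Cox4i2 was the 1 gene on the higher side at an unadjusted p below 0.05, at 10.7, 13.6, 6.66, 6.25 and 8.03 CPM with Cmpd60 against 5.41 to 7.40 CPM with vehicle (0.46 ± 0.18, adjusted p = 0.269 in edgeR's test). Cox5a gave −0.14 ± 0.06, Atp5f1a −0.13 ± 0.06 and Uqcrc2, the member of complex III with the smallest p, −0.11 ± 0.06, and none passed the adjusted threshold. The muscle forms were at 636 ± 52.7 CPM for Cox6a2 with Cmpd60 (−0.00 ± 0.07), at 213 ± 118 CPM for Cox7a1 and at 104 ± 50.8 CPM for Cox8b (n = 5). Their spread came from replicate 68, with 416 CPM of Cox7a1 and 193 CPM of Cox8b, which also had 120 CPM of Ucp1, against 0 to 41.2 CPM in the other Cmpd60 hearts. Vehicle heart 62 had 127 CPM of Ucp1, with Cox7a1 at 192 and Cox8b at 112 CPM. Replicate 68 was the highest of its group for 30 of the 45 members of at least 10 CPM, and the part of brown fat was not tested. Without replicate 68, 42 of the 47 members had values below 0, with a median of −0.08. In that fit 5 members had an unadjusted p below 0.05, all lower, against 14% of all genes in either direction and 6.39% lower.

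In the kidney, none of the 47 members tested passed, at the adjusted or the unadjusted threshold, in edgeR's test, where 0.300% of all genes passed the adjusted and 11.3% the unadjusted one; DESeq2 and limma-voom passed 0 at the adjusted threshold too. Values were below 0 for 36 members, with a median of −0.07. The smallest p of each complex belonged to Sdhd (0.13 ± 0.10), Uqcr11 (−0.36 ± 0.21), Cox6a2 (−1.11 ± 0.68, from at most 0.441 CPM with Cmpd60) and Atp5mc1 (−0.15 ± 0.11). Uqcr11, a small subunit of complex III, was at 50.9, 46.8, 23.5, 57.1, 61.0 and 61.2 CPM in Cmpd60 replicates 50 to 55 and at 51.6, 49.7, 93.7, 64.7 and 61.3 CPM with vehicle. Cmpd60 replicate 52 was the lowest of its group for 30 of 45 members and vehicle replicate 47 the highest for 36; without replicate 47, the median was −0.00.

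The response to Cmpd60 was compared between tissues in the joint fit of the aged mice. None of the 48 genes passed, where 0.350% of all genes passed for kidney minus heart, 0.0517% for brain minus heart and 0.0885% for kidney minus brain. An unadjusted p below 0.05 was found for 11.7% of all genes for kidney minus heart and 10% for kidney minus brain. Among the 48 members 1 had it in each of these, Cox6a2, which is a smaller share than over all genes. Cox6a2 gave −1.04 ± 0.42 for kidney minus heart (adjusted p = 0.312 in edgeR's test). For kidney minus brain it gave −0.90 ± 0.43 (adjusted p = 0.489 in edgeR's test), at the kidney levels of under 0.5 CPM given above. DESeq2 and limma-voom passed 0 members as well. The smallest p of the other complexes were those of Sdhb (0.17 ± 0.10), Uqcrb (−0.39 ± 0.20) and Atp5md (−0.51 ± 0.34) for kidney minus heart. For kidney minus brain they were those of Sdhd (0.16 ± 0.11), Uqcrb (−0.30 ± 0.20) and Atp5po (0.63 ± 0.39). For brain minus heart, where 0 members had an unadjusted p below 0.05 against 9.08% of all genes, they were those of Sdhb (0.12 ± 0.10), Uqcrq (−0.30 ± 0.18), Cox6b1 (−0.24 ± 0.18) and Atp5po (−0.73 ± 0.38). When brain and heart alone were fitted, 10 members had an unadjusted p below 0.05 for brain minus heart, all lower, where 12.3% of all genes had in either direction and 8.01% lower, and 0 passed the adjusted threshold.

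In the APPSWE cohort, the fit of 19 libraries had a wider spread between replicates, with a biological coefficient of variation of 0.729 against 0.114 in the brain at 20 months. Summed levels in vehicle brains were 704 ± 50.8 CPM (SD, n = 5) for complex II in APPSWE and 715 ± 32.4 CPM (n = 5) in littermates, against 705 ± 40.6 CPM (n = 6) in the brain at 20 months. For complex IV they were lower, 1218 ± 207 and 1177 ± 67.8 CPM against 1476 ± 140 CPM. The littermate libraries (1065 to 1246 CPM) did not overlap those of the brain at 20 months (1286 to 1716 CPM), but the APPSWE libraries (982 to 1518 CPM) did. Complex III stood at 858 ± 50.8 and 868 ± 26.3 CPM against 982 ± 76.5 CPM. The cohorts were not compared by a test. They differ in age and in genes detected at once, and these cannot be told apart. Littermate vehicle libraries held 15044 to 23151 genes detected, against 24939 to 25861 in the vehicle brains at 20 months. For Cmpd60 in APPSWE mice, none of the 48 genes passed in edgeR's test, where 0% of all genes passed; DESeq2 passed 22 genes and limma-voom 0, and neither passed a member. At an unadjusted p below 0.05, 4 members were lower, against 9.46% of all genes and 2.41% lower. Values were below 0 for 42 members, with a median of −0.18, against a median of 0.03 for all genes.

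The 4 were Atp5pd and Atp5pf, subunits of the peripheral stalk of complex V, Atp5mpl, a small membrane subunit of complex V, and Uqcr10. Atp5pd was at 164.5, 107.8, 112, 131 and 154.9 CPM in V140, V142, V144, V145 and V146 and at 114, 107.6, 94.0 and 91.0 CPM in C141, C143, C147 and C148, with a difference of −0.47 ± 0.14 (adjusted p = 0.444 in edgeR's test). V139, left out of the fit, was at 90.4 CPM. The groups overlapped through the lowest vehicle and the highest Cmpd60 libraries.

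Atp5mpl gave −0.78 ± 0.33, where V140 stood at 40.0 CPM and the other 4 vehicle libraries at 10.04 to 22.1 CPM, against 10.8 to 14.0 CPM with Cmpd60. Uqcr10 gave −0.67 ± 0.28 and Atp5pf −0.40 ± 0.15, with adjusted p of 0.464 and 0.444 in edgeR's test. The smallest p in complexes II and IV were those of Sdha (−0.11 ± 0.08) and Cox5a (−0.22 ± 0.13). The APPSWE median moved with single libraries, to −0.07 without V140 and to −0.32 without C141, where 16 members had an unadjusted p below 0.05, all lower, against 8.49% of all genes in either direction and 1.9% lower. It was −0.14 with V139 as vehicle and −0.17 with it as Cmpd60. The number of genes detected was 15555 to 20277 in the vehicle and 16402 to 23402 in the Cmpd60 libraries, and with it as a covariate 33 of 48 values were below 0, with a median of −0.06.

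In littermates, none of the 48 genes passed at the adjusted or the unadjusted threshold in edgeR's test, where 0% of all genes passed the first and 3.67% the second; DESeq2 and limma-voom passed 0 members at the adjusted threshold. The median was −0.09, with 36 values below 0, and the smallest p of each complex were those of Sdhb (−0.15 ± 0.11), Uqcrq (−0.31 ± 0.16), Cox7a2l (−0.22 ± 0.11) and Atp5f1d (−0.25 ± 0.12). The difference in response between APPSWE and littermate mice had no member below an unadjusted p of 0.05, where 5.09% of all genes were, and a median of −0.05; the smallest p were those of Sdhd (−0.26 ± 0.22), Uqcr10 (−0.54 ± 0.39), Cox7a2 (−0.39 ± 0.25) and Atp5pd (−0.34 ± 0.19). None passed the adjusted threshold in edgeR, DESeq2 or limma-voom, where 0% of all genes passed in edgeR.

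Between genotypes under vehicle, 2 members were higher in APPSWE mice at an unadjusted p below 0.05, Atp5pd (0.34 ± 0.13) and Atp5mpl (0.67 ± 0.31), where 8.67% of all genes were in either direction and 2.57% higher, and none passed the adjusted threshold, where 0.00862% of all genes did. The median of the members was 0.08, with 37 values above 0. This comparison and the Cmpd60 comparison in APPSWE mice share the same vehicle libraries. The other complexes had their smallest p for Sdhc (−0.18 ± 0.12), Uqcr10 (0.38 ± 0.26) and Cox4i2 (1.19 ± 0.90). Atp5pd was at 97.3, 126, 124, 105 and 91.8 CPM in the littermate vehicle libraries. Under Cmpd60, where 0% of all genes passed and 1.34% had an unadjusted p below 0.05, the genotypes differed by a median of −0.00, with 0 members at an unadjusted p below 0.05 and 0 passed by DESeq2 or limma-voom; the smallest p were those of Sdhd (−0.24 ± 0.16), Uqcrh (−0.19 ± 0.17), Cox7a2 (−0.23 ± 0.18) and Atp5md (0.49 ± 0.31).

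The values under Cmpd60 were related to transcript length, a split chosen after the data were seen. Of the 48 genes, 22 have transcripts of up to 600 bases, 14 of up to 1000 bases and 12 of over 1000 bases, from 321 to 2900 bases by the median of their protein-coding transcripts in GENCODE M1. In the brain, the 22 short genes had a median log2 difference of −0.19 and the 12 long genes −0.08. All genes of up to 600 bases and at least 10 CPM, members included, leaned the same way. Of these, 137 of 193 (71%) had values below 0, with a median of −0.08. At an unadjusted p below 0.05, 48 of them were lower and 10 higher. The median of such genes was −0.12 in APPSWE and −0.09 in littermate brain, but 0.08 in the kidney and 0.05 in the heart. Across genes, which are not independent replicates and share libraries and depth, Spearman's rho between length and log2 difference was 0.52 for the members. It was 0.65 for the 41 members of at least 10 CPM and 0.13 for all genes of at least 10 CPM. In the kidney rho was 0.45 for the members, 0.43 for those of at least 10 CPM and −0.24 for all genes of at least 10 CPM. In the same order it was 0.48, 0.58 and 0.24 in APPSWE brain, and 0.29, 0.32 and 0.15 in littermate brain. A relation to length was also present without Cmpd60. Between APPSWE and littermate mice under vehicle, rho was −0.37, −0.46 and −0.04 in that order. Between the genotypes under Cmpd60 it was 0.1, 0.14 and 0.1. When the genes detected per library entered the fit as a covariate, rho for the members was 0.11 in APPSWE and 0.07 in littermate brain, and the APPSWE medians were −0.07 for short and −0.05 for long genes.

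In the heart the sign was the opposite, with rho of −0.63 for the members, −0.68 for those of at least 10 CPM and 0.0018 for all genes of at least 10 CPM. There 3 of 21 short genes and 12 of 12 long genes had values below 0. That pattern rested on Cmpd60 replicate 68, without which 18 of 21 short and 12 of 12 long genes had values below 0 and rho was −0.10. In the brain it held without each of the 12 libraries left out in turn, with rho from 0.39 without vehicle replicate 30 to 0.63 without vehicle replicate 31. Short genes also varied more between replicates. Among the same 45 members, the median coefficient of variation in the Cmpd60 kidneys was 32.1% for genes of up to 600 bases and 10.6% for those of over 1000 bases, and in the vehicle brains 11.5% and 7.21%.

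**Figure D5:**
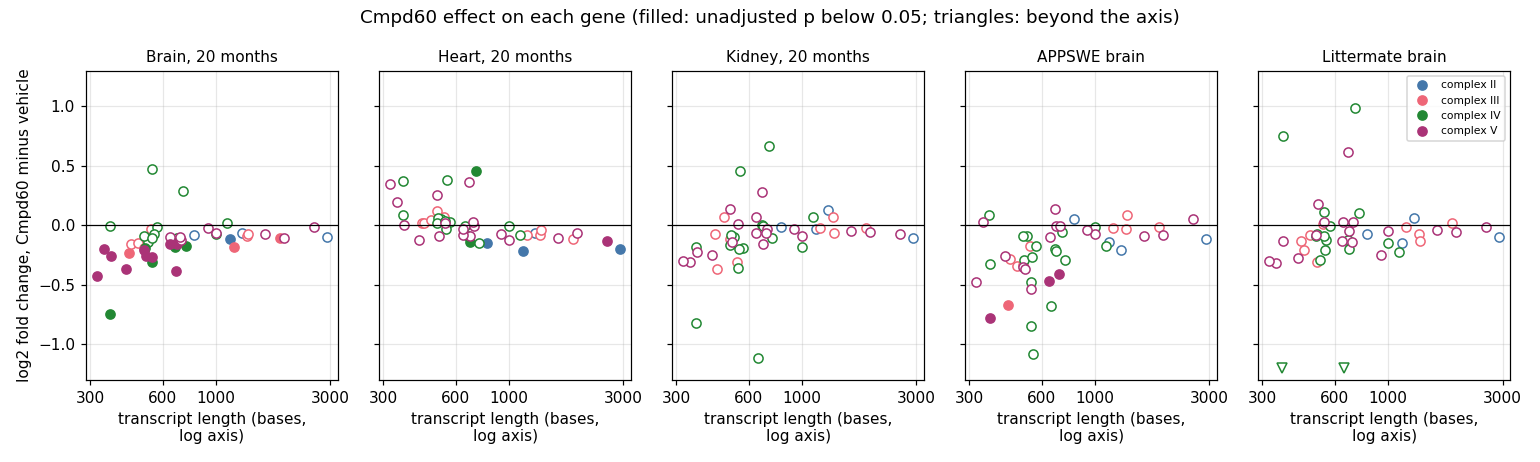
Log2 difference between Cmpd60 and vehicle for each gene against its transcript length in bases (log axis), for 5 tissue and cohort groups, colored by complex; filled points have an unadjusted p below 0.05 and triangles lie beyond the axis. In the brain at 20 months 45 of 48 points lie below 0, and filled points are all lower; in the heart the 12 genes over 1000 bases lie below 0.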

How the data were processed

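Poly(A) RNA was sequenced from 54 mouse libraries. The authors trimmed reads with Trimmomatic 0.32, aligned them with HISAT2 2.1.0 and counted reads per gene with HTSeq 0.11.0, strand aware; FastQC is also named. The authors took gene names from Ensembl; the genome build and the annotation used for counting are not given in the sources used here. The deposited values are raw counts for 54232 genes per library, plus summary lines that were left out. Gene IDs were paired with symbols for 32651 genes. Reads shared with near-identical copies may have been dropped or split, and 10 pseudogenes with these symbols were not included.

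CPM used edgeR's TMM factors over all libraries, while each fit took its factors from its own libraries, so a fitted difference near 0 can differ in sign from the CPM. Genes whose count exceeded 2 in 3 or more fitted libraries were tested with edgeR 4.0.16 (quasi-likelihood test, Benjamini-Hochberg adjustment, threshold 0.05) in R 4.3.3, with DESeq2 1.42.0 and limma 3.58.1 (voom) as alternatives. Each tissue's Cmpd60 effect was fitted on that tissue alone, tissues were compared in a joint fit of 34 libraries, and the APPSWE cohort was fitted as 19 libraries. Depth was 23584609 to 57430113 counts per library; floors take 3 counts for a count of 0 and cover counting error only. The labels do not tell which tissues came from the same mouse, so libraries were treated as separate mice.

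Named genes were the isoform and core subunit genes in the vehicle comparisons, up to 10 members past the threshold in a comparison (otherwise the 5 with the largest difference in each direction), and the member of each complex with the smallest p. The members and lists were chosen with earlier results of these data known. Transcript lengths are medians from GENCODE M1, and the length classes were chosen after the data were seen. The ribosomal protein list was narrowed to exclude kinases and binding proteins whose symbols start alike. Scripts were tested on simulated data. Alternatives covered scaling, count filters, the test, the libraries fitted, library V139, covariates and each library left out.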

Additional observations from a re-analysis of the deposited data

Results flagged for a closer look

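Of 150 checks for a library far from the others of its group, 18 met the limit, and chance alone gives about 1 in 20. In heart Cmpd60 replicate 68, Cox7a1 stood at 416 CPM, with the nearest library at 215, Cox8b at 193 CPM against 102, Atp5me at 152 CPM against 63.7 and Cox8a at 71.6 CPM against 61.7. In kidney Cmpd60 replicate 52, Cox6a1 was low at 133 CPM and Cox8a at 134 CPM, with the nearest library at 187 CPM for both. Cox8b stood apart at trace levels in kidney vehicle replicate 48 (1.92 CPM), kidney Cmpd60 replicate 54 (1.24 CPM), APPSWE V142 (0.503 CPM) and littermate V155 (0.981 CPM).

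In the brains at 20 months, Atp5pd was low in Cmpd60 replicate 33, at 94.8 CPM with the others from 117 CPM up, and Atp5me was high in vehicle replicate 30, at 30.9 CPM with the nearest at 23.2 CPM. In APPSWE V140 the summed level of complex III was 949 CPM, with the nearest at 842 CPM, and Cox6a1 was at 150.8 CPM against 104 CPM. Atp5me was at 17.8 CPM in APPSWE V146, and Sdha was low at 396.0 CPM in APPSWE C141, with the nearest at 470.3 CPM. In littermates, Cox8a was low in V149 (109 CPM) and Atp5mg high in C152 (94.9 CPM against 46.6 CPM in the nearest).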

How the results depend on the processing

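No paired analysis was possible because the library numbers in the labels differ between all groups. The number of members passing for Cmpd60 in the brain at 20 months was 0, but 3 with DESeq2 and 0 to 2 when each library was left out (1 without Cmpd60 replicate 36, 2 without vehicle replicate 29). Without vehicle replicate 29, 372 of all 24262 genes passed. In the heart it was 0, but 2 with DESeq2. Without TMM the vehicle sums were 3080, 4079, 4039 and 14190 CPM for complexes II, III, IV and V in heart and 765, 1066 and 3710 CPM for complexes II, III and V in brain. The sign turned only for log2 differences that had not passed. Leaving out each library, kidney minus brain ran from −2.34 to 0.0848 for Cox8b, from −0.149 to 0.324 for Atp5md and from −0.424 to 0.285 for Atp5me, heart minus brain from −0.276 to 0.0832 for Cox6b2, Cmpd60 minus vehicle from −0.0416 to 0.0104 for Atp5f1a in brain and from −0.0502 to 0.0302 for Cox6a2 in heart, and APPSWE minus littermate under Cmpd60 from −0.169 to 0.717 for Atp5md. Atp5me between kidney and brain was −0.0548 with DESeq2, −0.197 with limma-voom, −0.0597 with DESeq2's size factors in edgeR and −0.00191 with those tissues alone, and Atp5f1a in brain was 0.0224 with the covariate named below. The cause was not tested.

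Over all genes, DESeq2 passed 429 against 62 in kidney, 429 against 5 in brain, 746 against 229 in heart, 22 against 0 in APPSWE, 4 against 0 in littermates, 20 against 2 between vehicle genotypes, and 515 against 95, 187 against 14 and 269 against 24 for the differences in response between kidney and heart, brain and heart, and kidney and brain. Without the count filter 94 genes passed in kidney, 102 in brain and 8 in APPSWE. With the share of reads outside genes as a covariate, chosen after seeing the data, 232 passed in kidney, 8 in brain and 121 in heart. Spread between libraries and 4 to 6 libraries per group limit what could be detected.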
